A study of Rattus norvegicus with 14 samples.

Results

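Sox10, Egr2 and Jun encode transcription factors that set the state of the Schwann cell, the glial cell that wraps and myelinates peripheral axons. The values examined here are all rows of a table of transcription start sites (TSSs) whose gene symbol was Sox10, Egr2 or Jun: 5 TSSs of 4993, belonging to 3 genes of 2993. Sox10 was represented by 1 TSS, and Egr2 and Jun by 2 each. The levels come from 14 Tn5Prime libraries of rat material. Tn5Prime tags the 5′ end of each captured transcript during reverse transcription, so that a cluster of read starts marks a TSS, and the values (RPM) are its reads relative to all reads of the library.

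SOX10 is an HMG-box factor that is needed at every stage of the Schwann cell lineage, from the neural crest to the mature myelin sheath. EGR2 (Krox20) is a zinc finger factor that is induced at the onset of myelination and activates the myelin genes together with SOX10. JUN (c-Jun) is a basic leucine zipper factor of the AP-1 complex that opposes myelination: it is found in immature Schwann cells, is turned down as they myelinate, and returns after injury, when the cells adopt a repair state. EGR2 and JUN are known as mutual antagonists, so their balance is a common readout of the myelinating state.

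The nerve group consisted of 2 libraries from sciatic nerves of wild type adult rats aged 6 to 9 months, and whole nerve also holds fibroblasts, perineurial, endothelial and immune cells. Wild type primary rat Schwann cells, a bought preparation, received vehicle (control, 3 libraries) or CPT-cAMP, a cell-permeable cAMP analog that drives these cells towards a myelinating state (cAMP, 3 libraries), at 250 µM for 3 days. Both primary groups were kept in 5% serum after neuregulin and forskolin had been withdrawn, and were detached with trypsin before RNA was taken. The S16 line is an immortalised rat Schwann cell line. It was measured unmodified (parental, 2 libraries of 1 line) and as ΔSOX10 clones (4 libraries, labelled 1-1, 1-2, 2-1 and 2-2), each a clone made with Cas9 and 1 of 2 guides against the first coding exon of Sox10. The primary libraries came from separate populations of cells, and the parental libraries from 1 line, whose spread may be technical. The nerve and S16 libraries were sequenced on a HiSeq and the primary cell libraries on a NovaSeq instrument, and S16 cells were grown in 10% serum. Cell system, instrument and, between the cultures, serum cannot be told apart in comparisons between these sets.

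Library totals were 29895599 and 38377828 reads for nerve, between 51438602 and 65432361 for control, between 56075871 and 79940274 for cAMP, 44237275 and 38576749 for parental, and between 35087411 and 39337780 for ΔSOX10. A floor of 3 reads corresponded to 0.0375 RPM in the deepest library and 0.1 RPM in the shallowest. Intervals and floors given here cover counting error only. Reads at 5′ ends do not scale with the length of the transcript, which is why RPM values of different genes are set side by side here. They are not counts of molecules, and whether capture and amplification differ between these genes was not tested.

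All 5 TSSs lie on the minus strand of the rn5 build. The Sox10 TSS is a cluster of 64 bp at chr7:120396387-120396450. It lies inside an H3K4me3 peak (a histone mark of active promoters) of 5162 bp. The SOX10 ChIP-Seq peak of sciatic nerve listed with this TSS starts 1788 bp downstream of it. Each gene's H3K4me3 peak was broad for this table, where the median was 2156 bp.

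The Egr2 TSSs are a sharp upstream cluster of 4 bp at chr20:24556234-24556237 and a wide downstream cluster of 161 bp at chr20:24552519-24552679, 3555 bp further along the gene. The SOX10 peak listed with both, at chr20:24553000-24553399, lies 2835 bp downstream of the first cluster and 321 bp upstream of the second. The Jun TSSs are an upstream cluster of 47 bp at chr5:117960865-117960911 and a downstream cluster of 67 bp at chr5:117958314-117958380, 2485 bp further along. The upstream Jun cluster is the only one of the 5 TSSs that overlaps its listed SOX10 peak (chr5:117960800-117961399), which 51.7% of the rows of the table do.

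Of the 3 genes, 1 had a promoter in the RefSeq table used here, Egr2, which is why this promoter is shown. The 250 bases before its annotated start (GRCr8, minus strand, chr20:21054442-21054691) are printed 5′ to 3′. Capitals mark a CArG box, the site bound by serum response factor, and the letters of TGACG on the opposite strand, the core that cAMP response elements share.

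Egr2 promoter: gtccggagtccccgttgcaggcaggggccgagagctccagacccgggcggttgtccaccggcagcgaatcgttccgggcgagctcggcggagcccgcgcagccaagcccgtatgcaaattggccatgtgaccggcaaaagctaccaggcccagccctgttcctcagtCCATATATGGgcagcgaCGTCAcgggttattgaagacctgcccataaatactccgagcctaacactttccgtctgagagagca

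The CArG box begins 83 bases before the start and the TGACG core 66 bases before it, and they do not overlap. With both strands searched, 1.5% of the 33469 promoters of the same length held a CArG box and 18.2% held TGACG. The window held none of the following, which other promoters held in the shares given: the full cAMP response element TGACGTCA (1.59%), the AP-1 site TGANTCA (6.34%), the SOX motifs ACAAAG (16.3%) and ACAAT (30%), the EGR motif GCGTGGG (3.68%) and TATAAA (12.9%). These matches describe the letters only. The start belongs to another genome build than the clusters above, and which cluster it corresponds to was not determined.

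In the sciatic nerve, Sox10 stood at 48.6 and 42.4 RPM. The upstream Egr2 TSS was at 28.1 RPM in nerve 1 and 4.72 RPM in nerve 2, whereas the downstream Egr2 TSS was at 8.63 and 8.26 RPM. Both nerves therefore had nearly the same level at the downstream Egr2 TSS, while the upstream one differed several-fold between them. The upstream Jun TSS was at 17.5 and 15.2 RPM. The downstream Jun TSS was at 0.937 RPM in nerve 1 and 9.88 RPM in nerve 2, so that Jun also differed between the nerves at 1 of its 2 TSSs.

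As a share of each gene's reads, the downstream TSS carried 23.5% of Egr2 in nerve 1 (Wilson 95% interval 21.1 to 26.1) and 63.7% in nerve 2 (59.3 to 67.8). For Jun the shares were 5.08% (3.54 to 7.25) and 39.4% (36.3 to 42.5). In both genes the nerve 2 library held the larger downstream share, by more than the counting error. Other genes of the 2 libraries stood as follows. The immediate early genes, a list of rapidly induced genes of which 12 of 23 were in the table, summed to 321 RPM in nerve 1 and 364 RPM in nerve 2. Of the list's members, Fos, the AP-1 partner of JUN, was at 5.79 and 7.76 RPM over its TSSs. Among the Schwann cell markers (6 of 7 in the table), S100b, a calcium-binding protein, was at 1879 and 1543 RPM over its TSSs, Mbp (myelin basic protein) at 10199 and 6656 RPM, Erbb3, the neuregulin receptor, at 9.60 and 11.7 RPM and Ngfr, the neurotrophin receptor p75 of immature cells, at 4.52 and 11.1 RPM. For the other cell types the table held few markers: Col1a1 and Pdgfra of fibroblasts were at 130 and 135 RPM and at 3.71 and 2.50 RPM, Itgb4 of perineurial cells at 51.1 and 51.5, Pdgfrb of mural cells at 30.6 and 54.8, and Csf1r of macrophages at 4.82 and 1.07 RPM, and no endothelial or adipocyte marker was in the table. The part of these differences in the values of Egr2 and Jun was not tested. In a bulk sample, fewer cells of a type and less RNA per cell cannot be told apart.

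**Figure D1:**
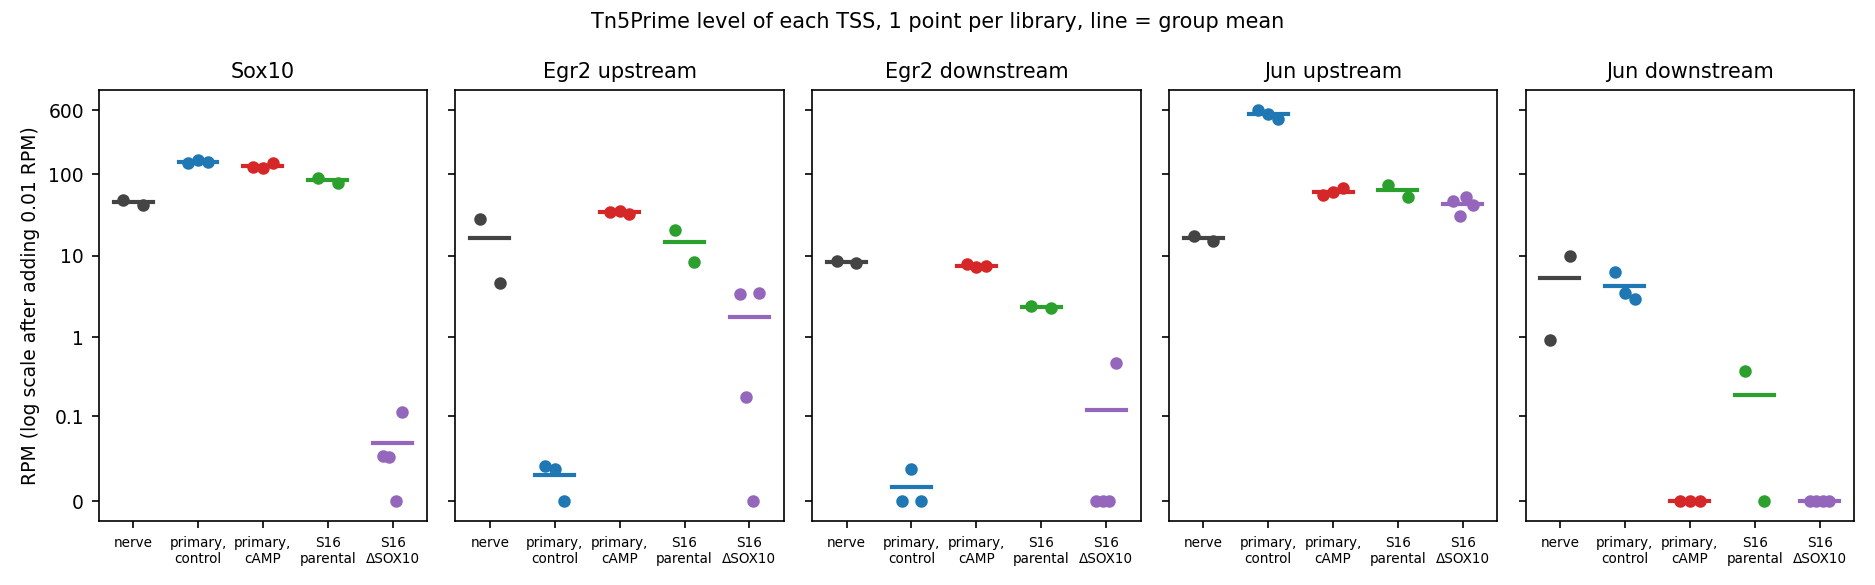
RPM of each TSS (log scale after adding 0.01 RPM) in every library, with the group mean as a line. The control cells have the highest upstream Jun TSS (475 to 606 RPM) and almost no Egr2, the ΔSOX10 clones almost no Sox10, and the nerve libraries lie apart at the upstream Egr2 and downstream Jun TSSs.

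The effect of cAMP on the 3 regulators was asked first, in primary Schwann cells. Egr2 rose from almost no reads to between 40.0 and 42.4 RPM over both TSSs, Jun fell at both of its TSSs, and Sox10 did not pass the test. In the 3 control libraries, the upstream Egr2 TSS was at 0.0175, 0.0153 and 0 RPM, and in the 3 cAMP libraries at 34.6, 35.0 and 32.5 RPM. The control values correspond to 1, 1 and 0 reads, under the floor in each library. Over the summed reads of the groups, the level was 2960 times higher with cAMP (6945 against 2 reads, counting interval 819 to 24400).

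The downstream Egr2 TSS was at 0, 0.0153 and 0 RPM in control cells and at 7.86, 7.31 and 7.50 RPM with cAMP. Its summed level was 1320 times higher (1549 against 1 read, counting interval 237 to 52200). Both Egr2 TSSs thus went from background to a narrow band of values that did not overlap with control. With limma on log2(RPM + 1), in which values near 0 are held down by the added 1 RPM, the log2 fold change was 5.12 ± 0.461 (SE) upstream (adjusted p = 1.65e-08) and 3.09 ± 0.542 downstream (adjusted p = 0.000169). The downstream share of Egr2 was 18.5%, 17.3% and 18.7% in the 3 cAMP libraries, below that of either nerve.

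Jun, at its upstream TSS, was at 606, 541 and 475 RPM in control cells, above 97.6% of the table's rows by its group mean. With cAMP it was at 55.1, 59.7 and 67.4 RPM. The groups stood far apart, and the log2 fold change was −3.13 ± 0.122 (adjusted p = 7.13e-15). The downstream Jun TSS had 6.36, 3.56 and 2.94 RPM in control cells and no read in any cAMP library. It was at least 292-fold lower with cAMP, taking a floor of 3 reads over the group, and its limma log2 fold change was −2.35 ± 0.578 (adjusted p = 0.0043). Although the downstream TSS carried only 1.04%, 0.654% and 0.615% of the Jun reads in control cells, it did not remain at that share: with cAMP the upper limits of the Wilson intervals were 0.0871%, 0.115% and 0.0835%.

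Sox10 was at 136, 149 and 140 RPM in control cells and at 123, 117 and 137 RPM with cAMP. The groups overlapped, with cAMP library 3 inside the control range. The log2 fold change was −0.17 ± 0.124 and did not pass the threshold (adjusted p = 0.353), and it lay between −0.24 and −0.13 under the alternatives tried. Of the 5 TSSs, 2 were called higher, where 12.9% of all 4119 TSSs tested were, and 2 were called lower, where 11% were. In 4 of the 5 the groups did not overlap, as in 36.6% of all TSSs tested. The calls held in every alternative that tested the TSS. The Egr2 TSSs exceeded 1 RPM, the level set by the filter, only with cAMP, and the downstream Jun TSS only in control cells. Each of these TSSs entered the test only through its higher group.

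The genes around these regulators were taken from lists of pathway members, each gene represented by its TSS with the highest level in nerve. The table was restricted to TSSs active in nerve that lay near active chromatin and SOX10 peaks of nerve, so many list members were not in it. Over the 2832 genes tested in cAMP against control cells, 13.5% rose and 13.9% fell, with a median log2 fold change of −0.03. Of 12 myelin genes tested, 10 rose and 1 fell, with a median of 2.94. Mal, a proteolipid of compact myelin, rose from 0.122 ± 0.0896 to 371 ± 66.3 RPM (mean ± SD, n = 3, adjusted p = 1.12e-15). Bcas1, a protein of early myelinating glia, rose from 0.0551 ± 0.0536 to 134 ± 11.9 RPM, and Pllp (plasmolipin) from 1.30 ± 1.24 to 174 ± 10.6 RPM. Cnp, an enzyme of the myelin cytoplasm, was the 1 that fell, from 491 ± 36.0 to 397 ± 21.6 RPM, and is named here after its value was seen.

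The AP-1 family and its kinases, the partners of JUN, moved in both directions. Of 6 tested, 2 rose and 1 fell, with a median of 0.43. Maf rose from 20.3 ± 6.01 to 51.9 ± 8.75 RPM and Fos from 73.6 ± 12.0 to 129 ± 5.03 RPM, while Atf4, a factor of the stress response, fell from 141 ± 21.3 to 68.1 ± 12.6 RPM. Of 12 immediate early genes, among them Fos again, 4 rose and 6 fell, with a median of −0.77. The orphan nuclear receptor Nr4a1 rose by 3.08 ± 0.209 on the log2 scale (adjusted p = 1.77e-10) and the phosphatase Dusp6 by 3.59 ± 0.278 (adjusted p = 1.41e-09), whereas Klf2, a zinc finger factor, fell by 2.72 (adjusted p = 1.84e-07).

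Among 4 genes of immature and repair cells tested, 2 rose and 1 fell, with a median of 0.0066. Ngfr, the neurotrophin receptor p75 of immature Schwann cells, fell from 2622 ± 63.0 to 794 ± 71.6 RPM. Id2, an inhibitor of basic helix-loop-helix factors, rose from 62.1 ± 5.45 to 571 ± 43.5 RPM, and Vim (vimentin) rose by 0.38 ± 0.0363 on the log2 scale (adjusted p = 3.42e-08). Of 8 neural crest, SOX-related and ID genes, among them Id2 again, 4 rose and 2 fell, with a median of 0.60. Plekha4 rose from 5.59 ± 1.31 to 528 ± 62.4 RPM, the ETS factor Etv1 from 0.0116 ± 0.0102 to 17.1 ± 7.83 RPM, and the neural crest factor Snai2 fell from 58.5 ± 18.1 to 2.54 ± 2.82 RPM. Of 3 EGR2 partners and relatives, with a median of 0.37, 1 rose: Wwtr1, the coactivator TAZ, from 43.1 ± 9.35 to 98.9 ± 4.22 RPM. These genes are thus spread over both directions, with the myelin genes mostly higher. The Schwann cell marker S100b was at 1918, 1812 and 1919 RPM over its TSSs in control and at 1649, 1601 and 1534 RPM in cAMP libraries. Other markers of the list differed in direction: Mbp was at 195, 217 and 243 RPM in control and at 1499, 1197 and 1351 RPM in cAMP libraries, Ngfr at 2694, 2587 and 2583 RPM and at 746, 760 and 877 RPM, and Erbb3 was at 41.6, 49.6 and 56.4 RPM and at 45.0, 31.8 and 57.1 RPM. The fibroblast gene Col1a1 was at 803, 898 and 909 RPM in control cells and at 463, 370 and 466 RPM with cAMP, and Pdgfra, the other fibroblast marker in the table, at 0 in all 3 control libraries and at most 0.338 RPM with cAMP. Pdgfrb, the mural marker, was at 1.91, 0.779 and 1.03 RPM in control and 27.3, 22.4 and 29.6 RPM in cAMP libraries. Itgb4, the perineurial marker, was at 2.87, 0.0458 and 0.311 RPM in control and at 5.09, 4.28 and 3.53 RPM in cAMP libraries, so that both of these markers were higher in every cAMP library, while Csf1r was at 0 in all 6. The part of other cells in these changes was not tested.

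The effect of losing SOX10 was asked in S16 cells. The targeted gene was nearly silent in the clones, Egr2 was low and uneven among them, and Jun did not pass the test. The Sox10 TSS was at 90.7 and 77.5 RPM in the parental libraries. In clones 1-1, 1-2, 2-1 and 2-2 it was at 0.0255, 0.0254, 0 and 0.114 RPM, which is 1, 1, 0 and 4 reads. Over summed reads, the parental level was 2120 times higher (7005 against 6 reads, counting interval 973 to 5770), and with limma the log2 fold change was −6.35 ± 0.368 (adjusted p = 1.57e-05). The edited exon lies downstream of the TSS, so that these reads report transcript level and do not check the edit itself.

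The upstream Egr2 TSS was at 21.0 and 8.40 RPM in the parental libraries, and at 3.44, 0.178, 0 and 3.48 RPM in clones 1-1, 1-2, 2-1 and 2-2. Each clone lay below both parental libraries, and clones 1-1 and 2-2 lay well above clones 1-2 and 2-1. The log2 fold change of −2.71 ± 0.747 missed the threshold (adjusted p = 0.0622). The downstream Egr2 TSS was at 2.42 and 2.28 RPM in the parental libraries and at 0, 0, 0 and 0.485 RPM in the clones. Clone 2-2 was the only one with reads there, and the log2 fold change of −1.60 ± 0.371 passed the threshold (limma, adjusted p = 0.0316). Only the parental libraries exceeded the 1 RPM that the filter asks of 2 libraries, so this TSS entered the test only through its higher group. With counting error alone, the summed downstream level was 20.8 times lower in the clones (195 against 17 reads, interval 12.7 to 36.5). When the 2 TSSs were summed, Egr2 fell by 2.90 on the log2 scale (limma, adjusted p = 0.0296).

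The call on each Egr2 TSS depended on the model. The upstream TSS passed in 7 of 16 alternatives (adjusted p from 0.00764 to 0.369) and the downstream TSS in 6 of 12 (adjusted p from 0.0153 to 0.407), always with the lower value in the clones. Neither passed with edgeR or DESeq2 on recovered reads. With limma, leaving out clone 1-1 or clone 2-2 gave the upstream TSS an adjusted p of 0.049 or 0.0405. Leaving out clone 1-1, 1-2 or 2-1 gave the downstream TSS 0.0744, 0.0902 or 0.0789. The upstream alternatives include fits with a single parental library, in which only the clones give the spread. The log2 fold change was −2.10 without parental replicate 1 and −3.32 without parental replicate 2.

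In Jun, the upstream TSS was at 74.2 and 52.4 RPM in the parental libraries and at 47.5, 30.8, 52.2 and 42.5 RPM in the clones. The highest clone lay just under the lower parental library. The log2 fold change of −0.54 ± 0.273 did not pass (adjusted p = 0.328), nor did it in any alternative. The downstream Jun TSS had 0.384 and 0 RPM in the parental libraries and no read in any clone, too little to test. Of the 4 TSSs tested, 2 were called lower, where 6.55% of all 3875 TSSs tested were, and in all 4 the groups did not overlap, as in 29.4% of all. The 2 calls were Sox10, which is the targeted gene, and the downstream Egr2 TSS, which passed in 6 of 12 alternatives. This count is therefore not read against the share of all TSSs. The median of all TSSs tested was −0.18 in this comparison. Relative to that median, Sox10 changed by −6.17, Egr2 by −2.53 upstream and −1.42 downstream, and Jun by −0.36.

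**Figure D2:**
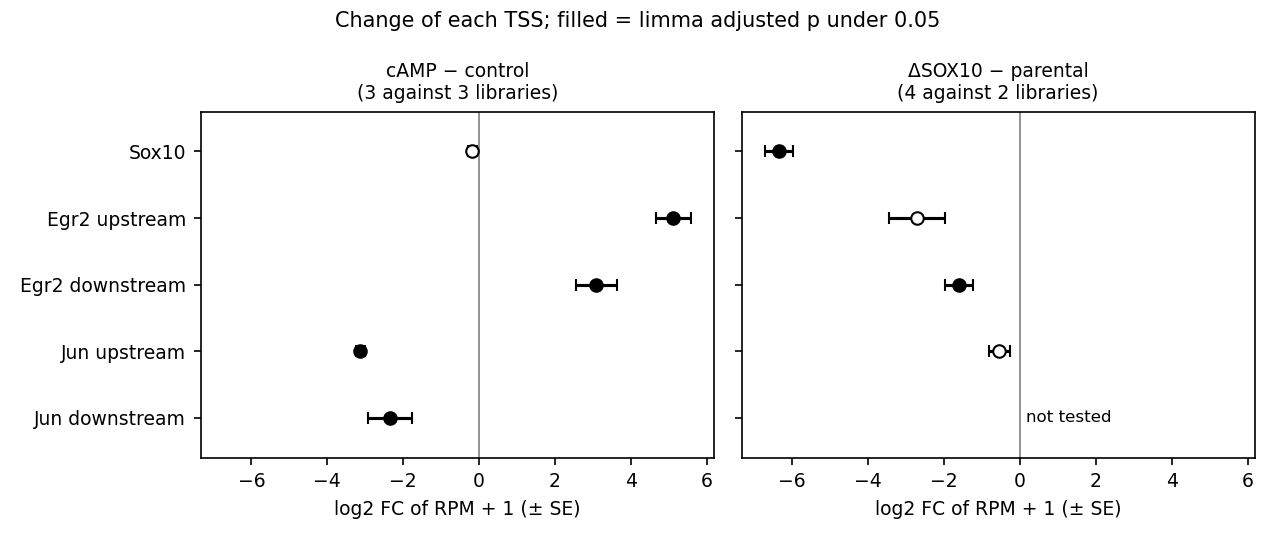
Log2 fold change of RPM + 1 with its standard error for each TSS, in cAMP against control primary cells and in ΔSOX10 against parental S16 cells, filled where the limma adjusted p was under 0.05. With cAMP the Egr2 TSSs lie to the right and the Jun TSSs to the left of 0, and with loss of SOX10 the Sox10 TSS lies at −6.35 while the upstream Egr2 and Jun TSSs did not pass.

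Over all TSSs tested in the S16 comparison, 1.65% were called higher, and with 1 TSS per gene 1.92% of 2763 genes rose and 5.43% fell, with a median log2 fold change of −0.17. Of 10 myelin genes, 8 fell, with a median of −5.27. Pmp22, the peripheral myelin protein whose gene dosage underlies inherited neuropathy, fell from 524 ± 13.9 RPM (SD, n = 2) to 0.743 ± 0.991 RPM (n = 4, adjusted p = 1.54e-05), and Mal from 154 ± 7.78 to 0.392 ± 0.639 RPM.

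Of 6 AP-1 genes and kinases tested, with a median of 0.565, 2 rose: Junb, another JUN family member, from 3.74 ± 0.395 to 13.2 ± 4.62 RPM (adjusted p = 0.0483) and Atf4 from 119.5 ± 7.78 to 294 ± 46.1 RPM (adjusted p = 0.0035). Of 11 immediate early genes, 3 rose and 1 fell, with a median of 0.67. Gadd45g, a stress-induced gene, rose from 110.5 ± 19.0 to 402 ± 115 RPM and Ier3 from 73.4 ± 10.5 to 200.1 ± 54.2 RPM, while Nr4a1 fell from 25.9 ± 1.63 to 5.15 ± 4.36 RPM. Over all their TSSs the immediate early genes summed to 1991, 1622, 1908 and 2056 RPM in the clones, against 1129 and 952 RPM in the parental line.

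Of 4 genes of immature and repair cells, with a median of −0.73, 1 fell and 1 rose: Ngfr fell from 786 ± 8.49 to 1.51 ± 0.883 RPM, and Id2 rose from 24.1 ± 3.04 to 65.7 ± 19.8 RPM. Of 7 neural crest, SOX-related and ID genes, 4 fell and 1, again Id2, rose, with a median of −1.41. Erbb3, the neuregulin receptor of the lineage, fell from 22.8 ± 1.76 to 0.00637 ± 0.0127 RPM, with 1 read in a single clone, S100b from 156 ± 7.29 to 9.26 ± 4.11 RPM, and Plekha4 from 57.1 ± 6.58 to 1.66 ± 1.36 RPM. None of the 3 EGR2 partners passed with limma at an adjusted p under 0.05 (adjusted p = 0.43 for Srebf1, 0.0678 for Srebf2, 0.756 for Wwtr1), and their median was −1.01. Over all its TSSs, the Schwann cell marker S100b was at 162 and 153 RPM in the parental libraries and at 7.11, 6.23, 15.3 and 8.44 RPM in the clones, and Mbp at 358 and 296 RPM and at 4.74, 2.24, 1.56 and 4.36 RPM. Of the 2 fibroblast markers in the table, Col1a1 was at 2828 and 2254 RPM in the parental line and at 2971, 4143, 5302 and 4460 RPM in the clones, and Pdgfra at 1.29 and 0.674 RPM and at 0.229, 0, 0 and 0.428 RPM, the other way. The mural marker Pdgfrb was at 4.95 and 6.66 RPM in the parental line and at 6.39, 3.07, 3.61 and 19.8 RPM in the clones, where clone 2-2 stood apart. The perineurial marker Itgb4 was at 0 in all of these libraries and the macrophage marker Csf1r in all but clone 1-2 (0.966 RPM). The part of other cells in these values was not tested.

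The balance of the 3 genes within a library does not depend on library size. Each gene's TSSs were summed and expressed as a share of the 3 genes together. Sox10 held 46.8% and 52.7% in the nerves, between 18.2% and 22.7% in control cells, between 53.4% and 56.0% with cAMP, and 48.1% and 55.1% in parental S16 cells. Sox10 therefore held about the same share in nerve, cAMP and parental libraries, and a smaller one in control cells. Egr2 held 35.4% and 16.1% in the nerves, between 16.4% and 19.3% with cAMP, 12.4% and 7.60% in parental cells, and at most 0.00441% in control cells. Jun held 17.8% and 31.2% in the nerves, 77.3% to 81.8% in control cells, 25.0% to 27.6% with cAMP and 39.5% and 37.3% in parental cells. In the clones, Jun held 93.2%, 99.3%, 100% and 91.2%, and Egr2 the rest except for at most 0.245% of Sox10.

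**Figure D3:**
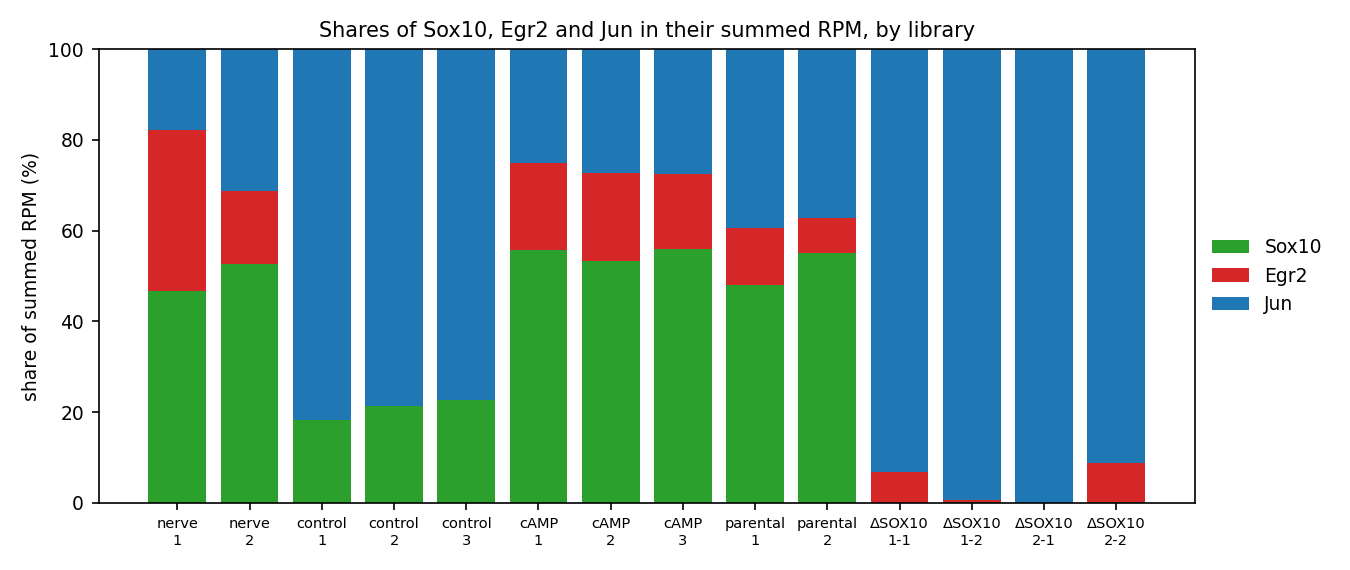
Shares of Sox10, Egr2 and Jun in their summed RPM, 1 bar per library. Jun holds most of the bar in the 3 control libraries (77.3% to 81.8%) and the 4 clones (91.2% to 100%), and Sox10 the largest part in nerve, cAMP and parental libraries.

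With cAMP, the Jun share changed from 79.2% ± 2.31 to 26.6% ± 1.41 (SD, n = 3 each), the Sox10 share from 20.8% ± 2.31 to 55.1% ± 1.44 and the Egr2 share from 0.00225% ± 0.00221 to 18.3% ± 1.67. The groups did not overlap for any of the 3 shares, and the exact two-sided permutation test gave p = 0.1 for each, the smallest that 3 against 3 libraries allow. Because the shares sum to 100%, the fall of Jun raises the Sox10 share by itself. The Sox10 level was not higher with cAMP, at 141.8 ± 6.18 RPM in control and 125.7 ± 10.2 RPM in cAMP cells, and its share is not read as a result of its own. In S16 cells, the Jun share was 38.4% ± 1.59 (n = 2) in the parental line and 95.9% ± 4.38 (n = 4) in the clones, and the Sox10 share 51.6% ± 4.99 and 0.0942% ± 0.106. Sox10 is the gene targeted in the clones, so that the loss of its part of the sum raises the Jun share by itself, and neither share is read as a result beyond that loss. Jun itself was not higher in the clones, at 63.5 ± 15.7 RPM in the parental line and 43.2 ± 9.21 RPM in the clones over its TSSs. The Egr2 share was 10.0% ± 3.40 in the parental line and 3.96% ± 4.31 in the clones, where the groups overlapped (exact permutation p = 0.2, with 0.0667 the smallest that 4 against 2 libraries allow). The loss of Sox10 raises the Egr2 share of the clones too, so the overlap of shares is not read as an unchanged Egr2. Over both TSSs, Egr2 itself was at 23.4 and 10.7 RPM in the parental libraries. In clones 1-1, 1-2, 2-1 and 2-2 it was at 3.44, 0.178, 0 and 3.96 RPM, without overlap. After Benjamini-Hochberg adjustment over 6 tests (3 shares in both comparisons), which are tied to each other, the p-values were 0.12 for each share with cAMP and 0.2 for the Egr2 share in S16 cells.

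Jun was the largest part both in control cells and in the clones, at different summed levels. The 3 genes summed to between 618 and 749 RPM in control cells, and to 51.0, 31.0, 52.2 and 46.5 RPM in the clones. They summed to 104 and 80.5 RPM in nerve, 189 and 141 RPM in parental cells and between 219 and 244 RPM with cAMP. Set against Sox10, there were 3.40 to 4.49 Jun reads per Sox10 read in control cells, 0.448 to 0.510 with cAMP, 0.822 and 0.676 in the parental line and 0.379 and 0.592 in nerve. The cAMP ratio thus lay within the range of the 2 nerves. There were 1.99 and 0.517 Egr2 reads per Jun read in the nerves, 0.594 to 0.769 with cAMP and 0.314 and 0.204 in the parental line. This ratio was at most 0.0933 in the clones and at most 5.61e-05 in control cells.

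The culture models were then set against nerve, with the same log2(RPM + 1) values and all 14 libraries in one limma fit. The rows of the table were selected from TSSs active in sciatic nerve, so a TSS used only in culture is not among them. The gene levels, calls and medians of these comparisons cover nerve TSSs only, and the effect of this selection was not tested. The comparisons share groups, and so are not independent of each other. The upstream Jun TSS was higher in control, cAMP and parental cells than in nerve, Sox10 was too but for parental cells after another scaling, and Egr2 differed from model to model. In control cells against nerve, Sox10 was higher by 1.62 on the log2 scale (adjusted p = 6.97e-06), the upstream Jun TSS by 4.96 (adjusted p = 1.28e-09), and both Egr2 TSSs were lower, with −3.67 upstream (adjusted p = 0.00089) and −3.23 downstream (adjusted p = 1.34e-06). That is 4 of 5 TSSs called, in a comparison in which 59% of all TSSs tested were called. The downstream Jun TSS gave 0.15 (adjusted p = 0.824), with both nerve libraries outside the control range, 1 below and 1 above it.

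With cAMP against nerve, Sox10 was higher by 1.45 (adjusted p = 2.28e-05) and the upstream Jun TSS by 1.83 (adjusted p = 1e-05), where 54.8% of all TSSs tested were called. Without scaling, Egr2 did not pass at either TSS: the difference was 1.44 upstream (adjusted p = 0.126), where every cAMP library lay above both nerves, and −0.14 downstream (adjusted p = 0.728). After median-ratio scaling the upstream difference was 0.53 (adjusted p = 0.593) and the downstream TSS passed as lower in cAMP cells, with −1.03 (adjusted p = 0.0167). The upstream result rests on which nerve is used, with 0.27 against nerve 1 alone and 2.62 against nerve 2 alone. A single nerve library gives no spread of its own.

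The parental S16 line was sequenced on the same kind of instrument as nerve. There the upstream Jun TSS was higher than in nerve by 1.87 (adjusted p = 2.01e-05), the downstream Egr2 TSS lower with −1.50 (adjusted p = 0.00259), and the upstream Egr2 TSS differed by 0.16 (adjusted p = 0.894), within the spread of either group. Sox10 was higher by 0.87 (adjusted p = 0.00338), but by 0.10 (adjusted p = 0.721) after median-ratio scaling and by 0.49 (adjusted p = 0.0699) after TMM scaling. The downstream Egr2 call was lost without either nerve library (adjusted p = 0.0702 without nerve 1 and 0.0652 without nerve 2), and the Sox10 call without nerve 2 (adjusted p = 0.0838). Calls covered 50.5% of all TSSs tested. Median-ratio scaling lowered the median of all TSSs tested from 0.02 to −0.66 in this comparison, from 0.28 to −0.60 in control cells against nerve and from 0.33 to −0.52 in cAMP cells against nerve. With that scaling the upstream Jun TSS was higher than in nerve by 1.12 in parental, 3.99 in control and 0.89 in cAMP cells, and Sox10 by 0.63 in control (adjusted p = 0.0117) and 0.48 in cAMP cells (adjusted p = 0.0473). Relative to the unscaled medians, the upstream Jun TSS differed from nerve by 1.85 in parental, 4.68 in control and 1.50 in cAMP cells, and Sox10 by 0.85, 1.34 and 1.12.

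Levels of other genes were also set beside those of nerve, without a test. The 12 immediate early genes in the table summed to 321 and 364 RPM in the nerves. Their sum was 1276, 1244 and 1309 RPM in control, 913, 917 and 789 RPM in cAMP and 1129 and 952 RPM in parental libraries. This sum was higher in every culture library, but members differed in direction. Nr4a1, at 77.2 and 93.3 RPM in the nerves, was at 54.8 to 59.6 RPM in control and 49.9 and 44.9 RPM in parental libraries. With cAMP it was at 241 to 267 RPM. Klf2 was at 24.9 and 41.0 RPM in the nerves and 5.44 to 11.9 RPM with cAMP. In control and parental libraries it was at 50.2 to 63.9 RPM. Myc, at 2.07 and 2.74 RPM in the nerves, was at most 1.42 RPM in these cultures. Fos, at 5.79 and 7.76 RPM in the nerves, was at 81.6, 61.8 and 80.1 RPM in control, 129, 135 and 137 RPM in cAMP and 138 and 109 RPM in parental libraries. Gadd45b, the list's most abundant gene in control and parental cells, was at 54.7 and 72.4 RPM in the nerves, 563, 483 and 539 RPM in control, 95.9, 82.2 and 83.5 RPM in cAMP and 239 and 254 RPM in parental libraries. Of the markers of other cell types, Col1a1 was higher in each of these culture libraries (370 to 2828 RPM) than in the nerves, while Itgb4 (at most 5.09 RPM), Pdgfra (at most 1.29 RPM), Pdgfrb (at most 29.6 RPM) and Csf1r (0 in all of them) were lower. Their part in the differences of Jun, Sox10 and Egr2 from nerve was not tested.

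Between the culture systems without treatment, parental S16 cells had more Egr2 than control primary cells, by 3.83 upstream (adjusted p = 0.000398) and 1.74 downstream (adjusted p = 0.0113). They had less Jun, with −3.09 upstream (adjusted p = 5.14e-09) and −2.11 downstream (adjusted p = 0.0159), and less Sox10, with −0.75 (adjusted p = 0.0329). All 5 TSSs were called here, in a comparison in which 27.1% of all TSSs tested were. The Sox10 call was lost after median-ratio scaling (adjusted p = 0.122), which moved the median of all TSSs from −0.18 to 0.00. It was also lost without any 1 of the 5 libraries, with adjusted p from 0.066 to 0.247. The downstream Jun call was lost without control replicate 1, parental replicate 1 or parental replicate 2 (adjusted p = 0.0577, 0.0609 and 0.144).

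**Figure D4:**
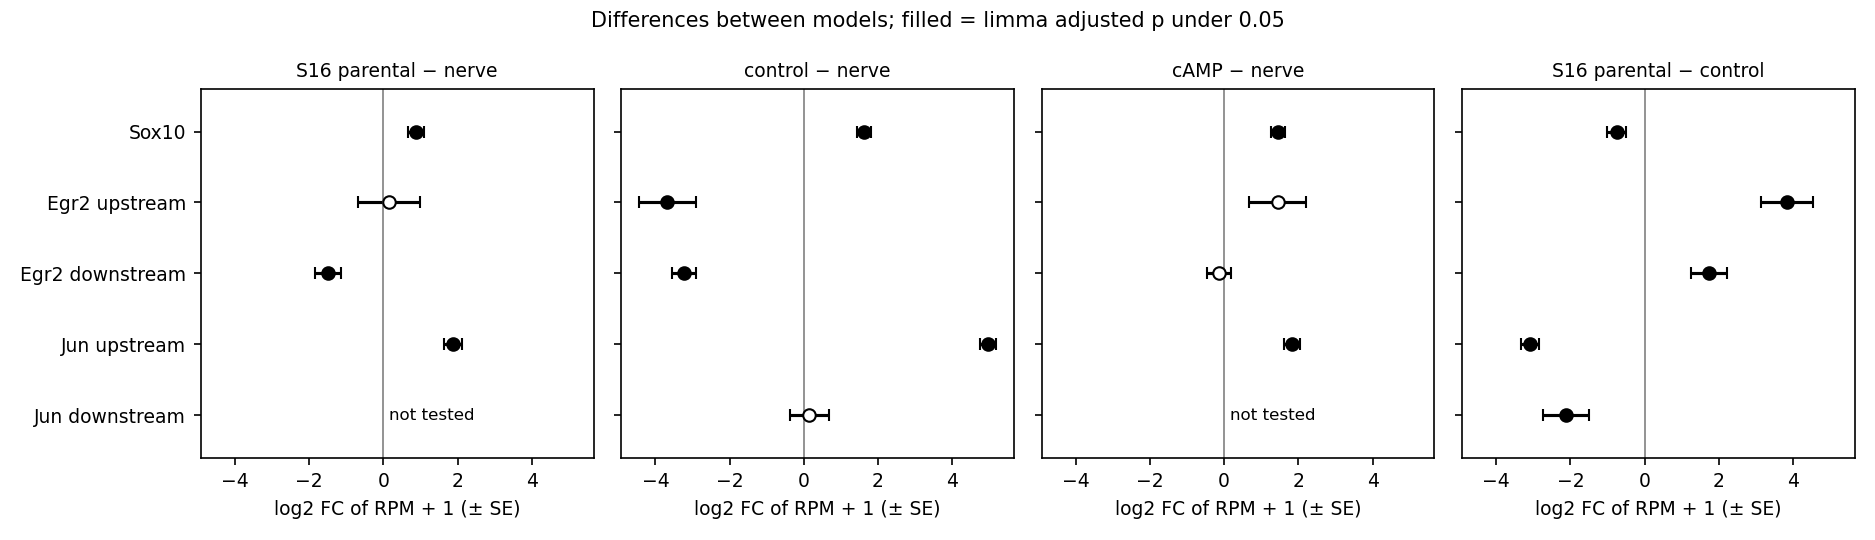
Difference in log2(RPM + 1) with its standard error for each TSS in the 4 comparisons between models, filled where the limma adjusted p was under 0.05. The upstream Jun TSS lies to the right of 0 in every comparison with nerve, and the Egr2 TSSs lie to the left of 0 in control cells against nerve.

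In order of mean level, Sox10 was highest in control cells (142 ± 6.18 RPM), followed by cAMP cells (126 ± 10.2), the parental line (84.1 ± 9.34), nerve (45.5 ± 4.35) and the clones (0.0412 ± 0.05). Only control and cAMP cells overlapped among these neighbours. The upstream Egr2 TSS was highest in cAMP cells (34.0 ± 1.33 RPM), followed by nerve (16.4 ± 16.6), the parental line (14.7 ± 8.91), the clones (1.77 ± 1.95) and control cells (0.0109 ± 0.00953), where nerve overlapped with the parental line and the clones with control cells. For the downstream Egr2 TSS the order was nerve (8.45 ± 0.262), cAMP cells (7.55 ± 0.277), parental (2.35 ± 0.099), clones (0.121 ± 0.242) and control cells (0.00509 ± 0.00882). Nerve and cAMP cells did not overlap at this TSS, by a difference that did not pass. At the upstream Jun TSS, the highest level was in control cells (540.5 ± 65.5 RPM), followed by the parental line (63.3 ± 15.4), cAMP cells (60.8 ± 6.21), the clones (43.2 ± 9.21) and nerve (16.4 ± 1.61). The parental line and cAMP cells overlapped.

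The downstream Jun TSS followed another order than the upstream one. It was at 5.41 ± 6.32 RPM in nerve and 4.28 ± 1.82 RPM in control cells, which overlapped, at 0.192 ± 0.272 RPM in the parental line, and had no read in the cAMP libraries and the clones. Its share of the Jun reads was 5.08% or more in nerve and at most 1.04% elsewhere.

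**Figure D5:**
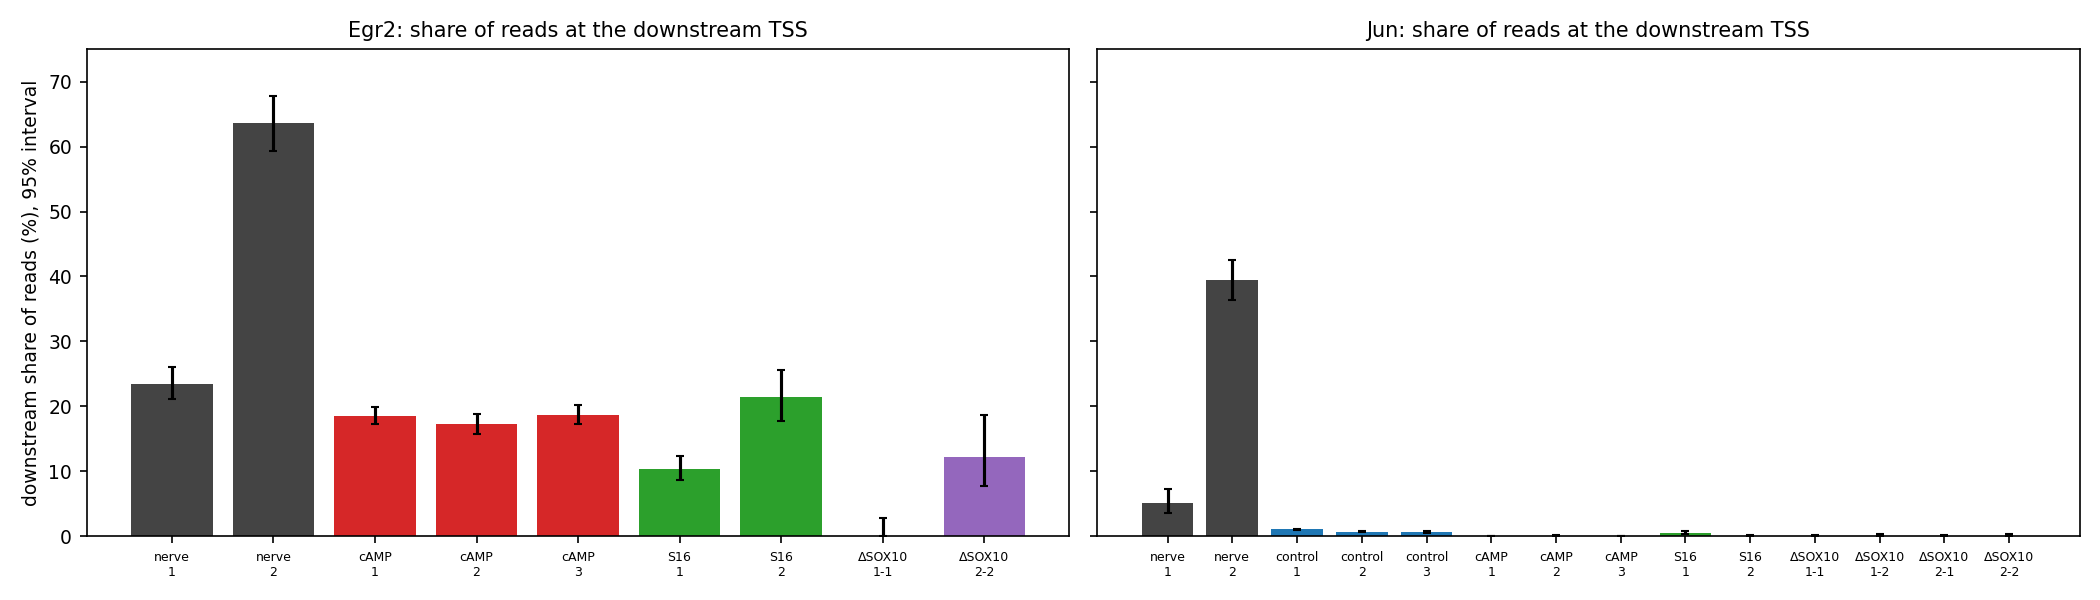
Share of a gene's reads at its downstream TSS, in percent with Wilson 95% intervals, for libraries with at least 50 reads of the gene. Nerve 2 stands at 63.7% for Egr2 and 39.4% for Jun, above every other library, and the cAMP libraries lie between 17.3% and 18.7% for Egr2 and at 0 for Jun.

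For each gene, the TSSs most like its own across the 14 libraries were sought by Pearson correlation of log2(RPM + 1), over 2472 genes with a mean of at least 5 RPM. The libraries share groups and instruments, so the coefficients are descriptions. Sox10 was closest to Gas7 (r = 0.996), a cytoskeletal adaptor, to Cd81 (r = 0.994), a tetraspanin, and to Erbb3 (r = 0.989). These genes shared the low level in the clones, with means of 0.126, 0.547 and 0.00637 RPM there and of 335, 995 and 22.8 RPM in the parental line. The upstream Egr2 TSS was closest to Utrn (utrophin, r = 0.915), to a lesser TSS of Plekha4 (r = 0.911) and to Vwa1 (r = 0.904), a matrix protein. Vwa1 had means of 206 RPM in nerve, 40.7 in control, 508 in cAMP, 254 in parental and 27.7 RPM in ΔSOX10 cells, which is the order of Egr2 but for nerve and parental, and the clones and control. The upstream Jun TSS was closest to Aph1b (r = 0.955), a subunit of gamma-secretase, to Tmem222 (r = 0.954) and to Afap1 (r = 0.953), an actin-binding protein, all of them highest in control cells and lowest in nerve. Among the 3 genes themselves, r was 0.365 between Sox10 and Egr2, 0.43 between Sox10 and Jun and −0.51 between Egr2 and Jun.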

How the data were processed

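The authors trimmed reads with cutadapt 1.14, mapped them to rn5 with STAR 2.5.2a, clustered read starts with Paraclu and counted them with featureCounts (Subread 1.6.1); tools and versions are from the submitters' processing notes. The deposited values are RPM per TSS and library, without pooling. They cover TSSs active in sciatic nerve and within 1 kb of an H3K4me3 peak that overlaps a SOX10 peak of nerve. The table also holds fold changes and FDR values of the authors' own comparisons, which were not used. No per-sample column was left unmatched. Low values were whole multiples of what 1 read is worth, within 0.1 read in 100% of them, which gave library totals and reads. Higher values in both parental libraries and clones 1-1 and 1-2 were partly rounded to 3 digits, and nerve 2 had only 53 low values; reads of these libraries are approximate.

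TSSs that exceeded 1 RPM in 2 or more of the compared libraries entered a two-sided limma fit (version 3.58.1, R 4.3.3, eBayes with trend) of log2(RPM + 1), with Benjamini-Hochberg adjustment over everything tested and a threshold of 0.05. Both pair comparisons used their own 6 libraries, and comparisons between models all 14. A TSS near 0 in 1 of the compared groups could enter only through the other group. Replicate numbers did not pair control and cAMP libraries. The recovered reads were also tested with DESeq2 1.42.0 and edgeR 4.0.16 as alternatives. Shares were compared by exact permutation. Listed genes are named where they are among the 3 largest changes called of their list; 1 gene is not reported here. The members and lists were chosen with earlier results of these data known.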

Additional observations from a re-analysis of the deposited data

Results flagged for a closer look

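Among the 4 ΔSOX10 clones, 7 measures of the 3 genes were examined for a library far from the others (Dixon's ratio), and 1 was found. The downstream Egr2 TSS was at 0.4845 RPM (17 reads) in clone 2-2 and had no read in the other 3 clones. With 3 of 4 values at 0, the ratio is at its maximum whatever the level of the fourth, so that it says nothing of how unusual this clone is. Clone 2-2 also had the highest upstream Egr2 value of the clones (3.48 RPM), which clone 1-1 (3.44 RPM) nearly matched without reads downstream.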

How the results depend on the processing

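Directions and calls of cAMP against control held for all 5 TSSs under every alternative run. Same-numbered control and cAMP libraries correlated at 0.0294, 0.00751 and 0.0379 in their deviations; the replicate block gave 553 TSSs higher and 467 lower and changed no call (Sox10, −0.17, adjusted p = 0.377). The count test (edgeR on reads) called 433 higher and 352 lower there (530 and 452 with limma), and 82 and 172 in ΔSOX10 against parental. Without a filter 276 TSSs were lower, and 288 in a fit of all 14 libraries. In ΔSOX10 against parental, TSSs called higher numbered 38 without a filter and 164 with DESeq2 (64 in the limma fit), and those lower 166 at a mean of at least 5 RPM (254 in the limma fit); leaving out a library gave 28 to 55 higher and 71 to 265 lower, fewest without parental replicate 1 (36 higher, 71 lower) or 2 (28 higher, 74 lower). The upstream Egr2 TSS passed with a pseudocount of 5 (−1.51), a mean of at least 5 RPM (−2.71), summed TSSs (−2.90) and all libraries (−2.71), and lay between −3.32 and −2.10 with a library left out; the downstream TSS was lost with a pseudocount of 0.1 (−3.98), edgeR (−4.17) and DESeq2 (−4.20), and lay between −1.74 and −1.55. The cause was not tested.

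For parental against nerve, Sox10 was lost with median-ratio (0.10) and TMM scaling (0.49; 0.76 to 0.98 with a library left out), the upstream Egr2 TSS turned to −0.57, −0.20 and −0.44 (median-ratio, TMM, summed TSSs; −1.02 to 1.33), and the downstream one was lost with a pseudocount of 0.1 (−1.80) and with 2 groups only (−1.50; −1.53 to −1.47). The downstream Jun TSS in control against nerve turned to −0.035, −0.60 and −0.28 (pseudocount of 5, median-ratio, TMM; −1.09 to 1.40). In cAMP against nerve, Egr2 passed upstream with a pseudocount of 5 (1.12; 0.27 to 2.62) and downstream with median-ratio scaling (−1.03). In parental against control, Sox10 was lost with a pseudocount of 0.1 (−0.76) and both scalings (−0.53 and −0.56; −0.86 to −0.64), the downstream Egr2 TSS with a pseudocount of 5 (0.55), and the downstream Jun TSS lay between −2.35 and −1.85. With a library left out, calls ranged from 1392 to 1994, 1773 to 2619, 1670 to 2437 and 522 to 850 in parental, control and cAMP against nerve and parental against control, fewest without nerve 2 (1518 without nerve 1 in the first) and parental replicate 2 (600 without 1). Median-ratio scaling moved calls from 1265 higher and 1089 lower to 711 and 1711, from 1666 and 1107 to 739 and 1775, from 1626 and 956 to 673 and 1624, and from 408 and 669 to 529 and 438 in the same order. Depth limits Egr2 in control cells and Sox10 in clones, which held 0 to 4 reads.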
